A study of Mus musculus with 4 samples.

Results

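The haem synthesis enzymes were followed in marrow depleted of mature lineages, taken from wild-type or from Mtg16 null mice. Mtg16 (gene symbol Cbfa2t3) is a corepressor of transcription in blood progenitors. The 8 genes are Alas1, Alas2, Alad, Uros, Urod, Cpox, Ppox and Fech, chosen by symbol out of the genes that the array annotation names. Each of the 8 had 1 probe with a single gene symbol, so no choice between probes arose, and all 8 lay in the brighter 50% of probes that was tested, among 8445 genes.

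Both groups were female mice aged 8 to 12 weeks, and each array carried RNA of marrow pooled from 4 mice after magnetic depletion of lineage-positive cells. The control mice were C57BL/6 without a stated transgene or treatment. The Mtg16 null mice were on a background labelled as an N4 backcross into C57BL/6, so donor-strain sequence that such a backcross leaves and the loss of Mtg16 cannot be told apart. The labels do not describe the null allele further. There were 2 arrays per genotype, and each of 2 array lots held 1 array of each, which gives a comparison within each lot. Whether arrays 1 and 2 of a genotype carried separate pools is not labelled, and p-values measure the spread between these arrays, which may be technical.

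Haem is built from glycine and succinyl-CoA along a single route that starts in the mitochondrion, continues in the cytosol and ends in the mitochondrion. The first enzyme, 5-aminolevulinate synthase, exists as a housekeeping isozyme encoded by Alas1 and an erythroid isozyme encoded by the X-linked Alas2. Developing red cells switch on the whole route strongly to supply haemoglobin, while other cells need haem for cytochromes, catalase and peroxidases. Alas1 is known for repression by haem, and Alas2 for control by erythroid factors such as GATA1 and by iron supply.

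Values are probe signals on a linear scale in arbitrary units, already brought to a common distribution over the 4 arrays before deposit, and differences are null minus wild type on the log2 scale. The median signal was 470 units on every array. The probes of 3 Y-linked genes, which female mice lack, read 94.5 to 310 units, whereas the lowest signal of any enzyme was 3247 units. The Cbfa2t3 probe overlapped between genotypes (0.24 on the log2 scale, limma adjusted p = 0.702). Where it lies relative to the deleted part is not given in the sources used here, so it checks the labels in neither direction. Stem and multipotent cell markers had a summed signal of 70254 to 77385 units in wild type and 97549 to 102808 units in null. Cd34 and Slamf1 among them had log2 differences of 1.48 and 1.94, Meis1 one of 0.31, and Kit and Mecom ones of -0.19 and -0.24. The 3 macrophage markers with a probe (Adgre1, Mrc1 and Vcam1) summed to 598 to 1120 units over all arrays, all of them outside the brighter 50%. Late neutrophil markers, which the depletion is meant to remove, still summed to 1369470 and 1485620 units in wild type and to 158427 and 148105 units in null.

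The start-site regions of Alas2, Cpox and Alas1 are shown first. Alas2 and Alas1 are the erythroid and the housekeeping isozyme, with differences of opposite sign, and Cpox is the enzyme gene with the most GATA motif matches. Alas2 and Cpox held matches to the GATA motif before their start sites, and Alas1 held a match to the core of the motif of NRF1, a factor of mitochondrial and housekeeping genes. The sequences come from RefSeq on build GRCm38.p6, run 5′ to 3′ in the direction of the gene, and carry the matches in capitals. The Alas2 stretch is chrX:150547167-150547416 on the plus strand, the 250 bases before the start site, and its capitals are a GATA word read on the opposite strand.
Alas2: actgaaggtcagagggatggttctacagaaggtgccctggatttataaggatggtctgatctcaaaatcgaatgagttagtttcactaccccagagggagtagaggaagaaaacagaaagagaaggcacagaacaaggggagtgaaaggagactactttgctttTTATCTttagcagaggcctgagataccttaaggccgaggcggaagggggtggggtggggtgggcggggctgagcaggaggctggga
The Cpox stretch is chr16:58669958-58670207 on the plus strand, again the 250 bases before the start site, and its capitals are a pair of GATA words on the opposite strand that share 1 base.
Cpox: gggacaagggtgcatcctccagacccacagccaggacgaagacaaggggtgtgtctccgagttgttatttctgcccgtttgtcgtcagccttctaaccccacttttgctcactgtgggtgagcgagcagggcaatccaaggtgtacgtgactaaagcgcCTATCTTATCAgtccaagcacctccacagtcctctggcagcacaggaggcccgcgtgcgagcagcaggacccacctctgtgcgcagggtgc
The Alas1 stretch is chr9:106247907-106247936 on the minus strand, 30 bases from -206 to -177, counted from the more downstream of its start sites. Its capitals are the NRF1 core on both strands, overlapping itself, and begin at -195. Counted from the more upstream start site, the same letters begin at 30, after that site.
Alas1: ccgcacccaagGCGCATGCGCggcggtcac

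The motif search covered windows from 250 bases before to 50 bases after each listed start site, 10 windows for 7 of the 8 genes; Fech was not in the promoter table. The GATA words were AGATAA and AGATAG, and the same with T as the first letter, on either strand. Counted from the start site, with -1 as the base before it, the Alas2 word began at -86 and the Cpox words at -91, -86 and 5. The more downstream Uros window held 2 matches, and the windows of Alas1, Alad, Urod and Ppox held 0. A match was thus present in 3 of the 10 windows, close to the 29.8% of all 32851 windows that hold one. The letters CACCC, part of the binding site of the erythroid factor KLF1, occurred on either strand in 6 of the 10 windows and in 57.5% of all windows. In Alas2 all 3 such matches began between -40 and -30. The NRF1 core GCGCATGC occurred in 2 of the 10 windows, which are the overlapping windows of Alas1 and hold the same site, and in 2.71% of all windows. A match of letters is not evidence of binding.

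The isozymes of the first step had differences of opposite sign. Alas1 gave 27418 and 23198 units on wild-type arrays 1 and 2 and 64561 and 53781 units on null arrays 1 and 2, so both null arrays lay above both wild-type arrays. Its group means were 25308 ± 2984 and 59171 ± 7622 units (SD, n = 2), 2.34-fold higher in null. By limma this log2 difference of 1.22 had an SE of 0.21 and an adjusted p of 0.108. The lots gave nearly the same value, 1.24 in lot 1 and 1.21 in lot 2. Alas2 gave 11724 and 9226 units in wild type and 4677 and 3313 units in null, so here both null arrays lay below both wild-type arrays. Its log2 difference was -1.40 (SE 0.27, adjusted p = 0.125), that is 2.64-fold lower, with -1.33 in lot 1 and -1.48 in lot 2. Neither isozyme passed the threshold of 0.05 over all genes. Among the 8445 tested genes, 3.42% had a higher difference than Alas1, and 1.71% a lower one than Alas2.

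The ratio of the Alas2 to the Alas1 signal within an array combines both isozymes and cancels any factor common to an array. Its log2 value was -1.23 and -1.33 on wild-type arrays 1 and 2 and -3.79 and -4.02 on null arrays 1 and 2. The levels of different probes are not comparable, so only the change of this ratio has a meaning, not its size. The log2 difference was -2.63, or 6.17-fold lower in null (5.90-fold in lot 1 and 6.46-fold in lot 2). The gap between arrays of one genotype was 0.10 in wild type and 0.23 in null. A two-sided exact permutation test over the 4 arrays gave p = 0.333, the smallest value that 2 arrays against 2 can give.

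**Figure D1:**
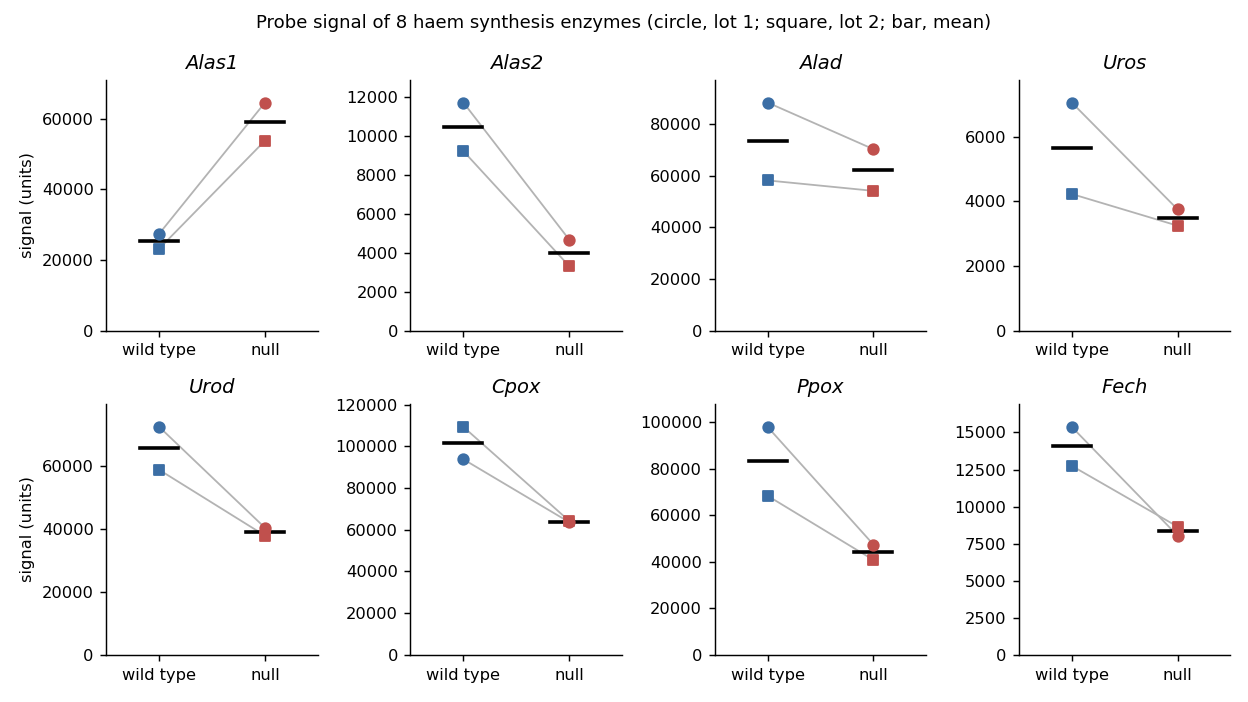
Probe signal in units (vertical axes, each starting at 0) of the 8 enzyme genes on wild-type and null arrays. Circles are lot 1, squares lot 2, grey lines join the arrays of a lot and black bars are means of 2 arrays. Alas1 is higher in null, Alad overlaps between genotypes, and the other 6 genes are lower on both null arrays than on either wild-type array.

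The cytosolic steps that follow were lower in null by smaller amounts, and the first of them was not separated. Alad, which joins aminolevulinate molecules into porphobilinogen, gave 88416 and 58221 units in wild type and 70338 and 54166 units in null. The genotypes overlapped, since null array 1 lay between the wild-type arrays. Its log2 difference was -0.22 (SE 0.30, adjusted p = 0.806), and it was 0.08, of opposite sign, without wild-type array 1. Uros, which closes the porphyrin ring, gave 7059 and 4228 units in wild type and 3753 and 3247 units in null. The groups did not overlap, but the log2 difference of -0.65 (SE 0.31, adjusted p = 0.431) was smaller than the gap of 0.74 between the wild-type arrays. Leaving out wild-type array 1 made it -0.28, and leaving out the other wild-type array made it -1.02. Urod, which decarboxylates uroporphyrinogen, gave 72350.5 and 58721 units in wild type and 40327 and 37843 units in null. Its difference of -0.74 (SE 0.20, adjusted p = 0.208), 1.67-fold lower, exceeded the gap between arrays of either genotype, and was -0.84 in lot 1 and -0.63 in lot 2.

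The last 3 steps, which take place in the mitochondrion, were all lower on both null arrays. Cpox, coproporphyrinogen oxidase, gave 93813 and 109348 units in wild type and 63654 and 64264 units in null. It was 1.58-fold lower (log2 difference -0.66, SE 0.18, adjusted p = 0.215), and it was the only enzyme brighter on wild-type array 2 than on wild-type array 1. Ppox, protoporphyrinogen oxidase, gave 97948 and 68352 units in wild type and 47408 and 40804 units in null. It was 1.86-fold lower (log2 difference -0.90, SE 0.26, adjusted p = 0.230), which placed it second to Alas2 in size among the lower genes. Fech, ferrochelatase, which inserts iron into protoporphyrin and itself holds an iron-sulphur cluster, gave 15375 and 12748 units in wild type and 8046 and 8649 units in null. Its difference was -0.75 (SE 0.19, adjusted p = 0.199), with -0.93 in lot 1 and -0.56 in lot 2.

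Over the 8 genes together, 7 of the 8 were lower in null in both lots, against 36.8% of all tested genes, and 1, Alas1, was higher in both, against 33.6%. The groups did not overlap, with null lower, for 6 of the 8 genes, against 23.1% of all tested genes, and with null higher for 1 of the 8, against 22.6% of all tested genes. No enzyme passed limma at an adjusted p under 0.05, where 0.118% of all genes (10 genes) did. At an unadjusted p under 0.05 there were 5 lower enzymes (Alas2, Urod, Cpox, Ppox and Fech), against 6.83% of all genes, and 1 higher enzyme (Alas1), against 9.65% of all genes. With the array lot as a replicate block, which the lot numbers in the series text support as a pairing, 0 enzymes (adjusted p from 0.113 to 0.409) and 0% of all genes passed. Under other settings of the fit Alas1 and Alas2 passed and the other 6 enzymes did not. When only the brightest 25% of probes were kept their adjusted p was 0.0268 and 0.0355, and 291 of 4967 genes passed (5.86%). With a variance trend it was 0.0286 and 0.0472, and 295 of all 8445 genes passed (3.49%).

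The median log2 difference of the 8 genes was -0.70, against -0.02 over all tested genes, and was -0.88 in lot 1 and -0.60 in lot 2. Ordered by difference, Alas2 stood lowest at -1.40, followed by Ppox, Fech, Urod, Cpox and Uros between -0.90 and -0.65, then Alad at -0.22 and Alas1 at 1.22. The 5 genes from Ppox to Uros had standard errors of 0.18 to 0.31 and were not separated from each other beyond them. Both lot values of Alas2 lay below both lot values of each other enzyme. Whether Alas2 differed from Ppox was not tested. On the wild-type side, array 1 was brighter than array 2 for 7 of the 8 genes, while over all tested genes it was brighter for 52.5%. On the null side, array 1 was brighter than array 2 for 6 of the 8, against 50.8% over all tested genes. The part of these array differences in the genotype differences was not tested.

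**Figure D2:**
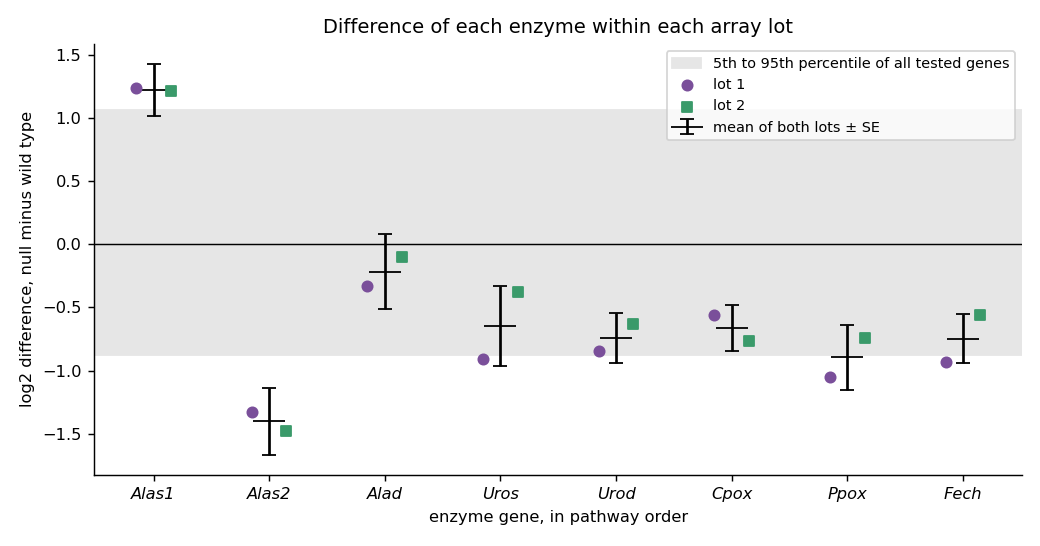
Log2 difference, null minus wild type, of each enzyme in pathway order. Circles are lot 1, squares lot 2, black bars the mean with the SE of the moderated fit, and the grey band spans the 5th to 95th percentile of all tested genes (-0.87 to 1.07). The means of Alas2 and Ppox lie below the band and that of Alas1 above it. The lot 2 value of Ppox (-0.74) lies inside the band. The lots share a sign for all 8 genes.

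Erythroid markers moved with the lower enzymes. Of 22 markers listed, 16 had a probe and 15 were tested. All 15 were lower in null in both lots, against 36.8% of all tested genes. Their median log2 difference was -1.06, with a range of -1.77 to -0.50. By limma 0 of the 15 passed over all genes, and 13 were lower at an unadjusted p under 0.05, against 6.83% of all genes. The groups did not overlap, with null lower, for 14 of the 15, against 23.1% of all tested genes. The 16 markers summed to 3296450 and 2397960 units on wild-type arrays 1 and 2 and to 1600460 and 1416790 units on null arrays 1 and 2. Car1 alone gave 1586820 and 928454 of these units in wild type and 628963 and 540187 in null. None of the 16 lay in the range of the Y-linked probes. Kel, a red cell surface antigen gene, was 3.41-fold lower (adjusted p = 0.0744), while the membrane protein genes Ermap and Rhd were both 3.31-fold lower (adjusted p = 0.0975 and 0.149). Trim10, a gene of terminal red cell differentiation, was 2.42-fold lower, and Hba-a1, an alpha globin gene, 1.47-fold lower (adjusted p = 0.0975 and 0.331). In such bulk samples, fewer erythroid cells and less RNA per erythroid cell cannot be told apart.

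The enzymes were also set against these markers on the same array. The mean log2 signal of the 15 markers was lower in null by a difference of -1.14 (-1.22 in lot 1 and -1.07 in lot 2; -1.27 to -1.01 with an array left out), and subtracting it from each enzyme gave a relative difference. This comparison was chosen after the values were seen and carries no test. Alas2 had a relative difference of -0.26, with -0.11 in lot 1 and -0.41 in lot 2, and 4 of the 15 markers were lower by more than Alas2. Its log2 signal minus the marker mean was -1.79 and -1.87 on the wild-type arrays and -1.90 and -2.28 on the null arrays. The null arrays thus lay further apart than the relative difference of Alas2. Ppox had a relative difference of 0.25, Fech 0.40, Urod 0.40, Cpox 0.48, Uros 0.50 and Alad 0.93, all positive in both lots. Alas1 stood at 2.37. For Ppox and Cpox the wild-type arrays lay further apart than the relative difference. They stood at 1.273 and 1.016 for Ppox (relative difference 0.247) and at 1.211 and 1.694 for Cpox (0.479). For Ppox 11 of the 15 markers were lower by more, and for Alad all 15 were. The differences of Alas2, Ppox, Fech, Urod, Cpox and Uros all lay within the range of the markers.

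**Figure D3:**
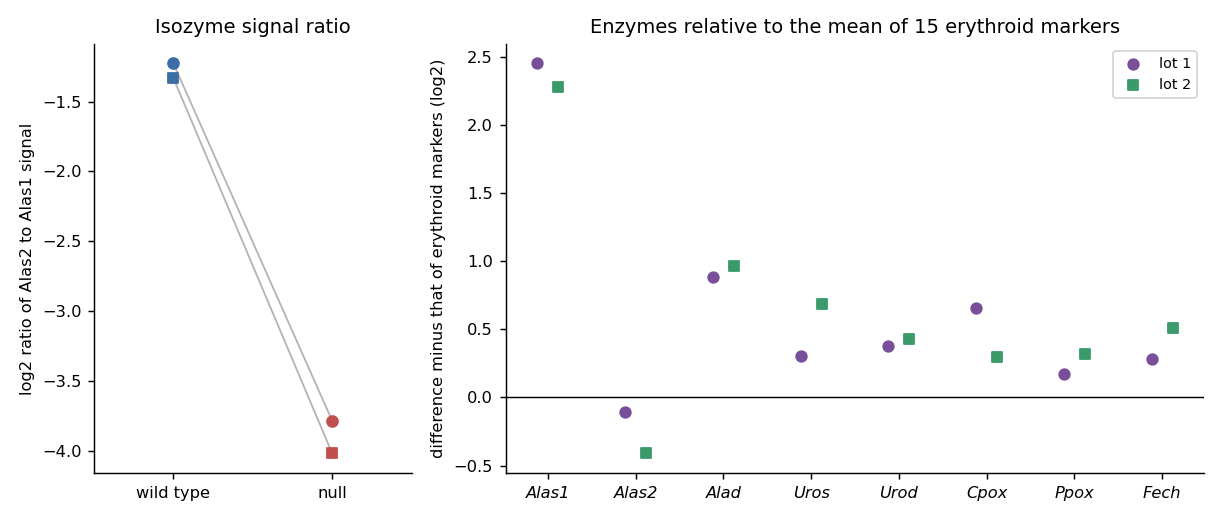
Left, log2 ratio of the Alas2 to the Alas1 signal on each array, which falls between -1.33 and -1.23 in wild type and between -4.02 and -3.79 in null. Right, log2 difference of each enzyme minus that of the mean of 15 erythroid markers, with circles for lot 1 and squares for lot 2. Alas2 is below 0 and the other 7 genes are above 0 in both lots.

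Markers of several other cell types were higher in null, as Alas1 was, while those of late neutrophils were lower. All 11 late neutrophil markers were lower in both lots, against 36.8% of all tested genes, with a median log2 difference of -3.64. By limma 7 of the 11 passed over all genes, among the 10 genes (0.118%) that did. All 7 early granulocyte genes were tested and were higher in null in both lots, against 33.6% of all tested genes. The median log2 difference was 1.89. By limma 0 passed over all genes and 6 were higher at an unadjusted p under 0.05, against 9.65% of all genes. The early granulocyte genes had a summed signal of 1689230 and 1602690 units in wild type and 4112760 and 3460850 units in null. Elane, the neutrophil elastase gene, was 4.70-fold higher. Of 6 B lineage markers with a probe 5 were tested and all 5 were higher in both lots, against 33.6% of all tested genes. By limma 0 passed and 3 were higher at an unadjusted p under 0.05, against 9.65% of all genes. The median of the 5 was 1.20. The 6 summed to 39577 and 31576 units in wild type and 81047 and 72049 units in null. Of 4 megakaryocyte markers with a probe Ppbp, Gp9 and Pf4 had differences of 1.33, 0.78 and 0.52, and Vwf one of -0.88. Their sum, mostly Pf4 and Ppbp, was 475098 and 472992 units in wild type and 908936 and 792895 units in null. The part of the cell types with higher markers in the Alas1 difference was not tested.

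The genes whose pattern over the 4 arrays was most like that of Alas2 were found by the root mean square distance between log2 signals, each gene centred on its own mean. The 6 nearest named genes were Pih1d2, Mgll, Cldn13, Bdh1, Clcn2 and Blvrb, at distances of 0.03 to 0.09. Mgll encodes monoglyceride lipase, Bdh1 the mitochondrial dehydrogenase of hydroxybutyrate, Clcn2 a chloride channel, Cldn13 a claudin and Blvrb the biliverdin reductase that is abundant in red cells. Their log2 differences lay between -1.51 and -1.31, and 0 of the 6 passed limma over all genes (adjusted p from 0.104 to 0.179). Of the other enzymes Ppox was nearest to Alas2, as the 93rd nearest gene (distance 0.28), and Alas1 was the 7961st of the 8445 genes (distance 1.32). With 4 arrays this is a description of likeness and not of a relation.

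Over all tested genes, 6.83% were lower and 9.65% higher at an unadjusted p under 0.05 by limma, which stands beside each list that follows. Around the route, genes that bring substrates and cofactors to it, listed with mitochondrial protease genes (Lonp1, Clpp and Clpx), showed no common direction. Of 18 listed, 14 were tested, 0 passed limma over all genes in either direction, 0 were lower and 1 was higher at an unadjusted p under 0.05, and the median log2 difference was -0.13 (-0.21 with wild-type array 2 left out, -0.07 with wild-type array 1 left out). The higher gene was Shmt1, the cytosolic serine hydroxymethyltransferase that makes glycine, with 1959 and 1443 units in wild type and 4474 and 3006 units in null (2.18-fold higher, adjusted p = 0.208). Slc25a38, the mitochondrial glycine carrier required for erythroid haem synthesis, gave 8229 and 5761 units in wild type and 4604 and 4300.3 units in null (log2 difference -0.63, adjusted p = 0.337). Lonp1, a mitochondrial protease that degrades aminolevulinate synthase, was 1.36-fold lower (adjusted p = 0.323). Shmt2 and Suclg1, a subunit gene of the ligase that forms succinyl-CoA, had differences of 0.21 and 0.21 and overlapped between genotypes.

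Genes of mitochondrial iron and porphyrin transport and of iron-sulphur cluster assembly had a median log2 difference of -0.35. Of 23 listed, 16 were tested, 0 passed limma over all genes, 3 were lower and 0 higher at an unadjusted p under 0.05, and 9 were lower and 3 higher in both lots, against 36.8% and 33.6% of all tested genes. Lyrm4, a partner of the cysteine desulphurase Nfs1, gave 44674 and 47273 units in wild type and 24891 and 22581 units in null, 1.94-fold lower (adjusted p = 0.118). Glrx5, the glutaredoxin whose loss causes an anaemia with defective haem synthesis, gave 392333 and 380965 units in wild type and 247567 and 236436 units in null (log2 difference -0.68, adjusted p = 0.184). Bola3, a late-acting cluster assembly factor, had a difference of -0.74 (adjusted p = 0.405). The largest differences of opposite sign shared by both lots were 0.18 for Hscb and 0.17 for Fdx1 (adjusted p = 0.733 and 0.801).

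Genes of haem breakdown, export, uptake and binding held large differences in both directions. Of 18 listed, 10 were tested, 0 passed limma over all genes, and 3 were lower and 1 higher at an unadjusted p under 0.05, with a median of -0.40. Blvrb gave 311176 and 237264 units in wild type and 106075 and 85604 units in null, 2.85-fold lower (log2 difference -1.51, SE 0.24, adjusted p = 0.104). Hp, the plasma haemoglobin binder haptoglobin that granulocyte precursors also make, was 2.54-fold higher (adjusted p = 0.104). Cd163, the macrophage receptor for haptoglobin bound to haemoglobin, was 1.67-fold lower (adjusted p = 0.196). Hmox2, the constitutive haem oxygenase, and Abcg2, a porphyrin exporter, had differences of 0.44 and 0.10 (adjusted p = 0.608 and 0.884).

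Regulators around haem and iron sensing, not all of them sensors, had a median log2 difference of -0.01 over 11 tested genes of 18 listed. By limma 0 passed over all genes, and 0 were lower and 1 higher at an unadjusted p under 0.05. With an array left out this median ran from -0.28 (without wild-type array 2) to 0.07 (without null array 1), and it was -0.19 without null array 2. The higher one was Ncoa4, the receptor that delivers ferritin to lysosomes, with 27656 and 24021 units in wild type and 47159 and 50034 units in null, 1.88-fold higher (adjusted p = 0.130). Egln1, an oxygen-sensing hydroxylase, had a difference of -0.40 (adjusted p = 0.501). Foxo1, a factor that can drive Alas1, and Nr1d2, a haem-binding nuclear receptor, had differences of 0.37 and 0.34 and overlapped between genotypes (adjusted p = 0.690 and 0.817).

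Erythroid transcription factors had a median log2 difference of -0.21 over 12 tested genes of 14 listed. The tested genes include Cbfa2t3, the Mtg16 gene itself (0.24). Leaving out wild-type array 2 moved the median to -0.36, leaving out wild-type array 1 to -0.13, and leaving out null array 2 to -0.11. By limma 0 passed over all genes, and 2 were lower and 1 higher at an unadjusted p under 0.05. Zfpm1, the GATA1 cofactor, gave 128227 and 109472 units in wild type and 70039 and 63489 units in null (1.78-fold lower, adjusted p = 0.161). Gata1 itself had a difference of -0.75 (adjusted p = 0.199). Gfi1b, a repressor needed for red cell and platelet precursors, had -1.17, but wild-type array 1 read 102631 units and wild-type array 2 49010 units (adjusted p = 0.368). The higher gene was Nfe2, which also acts in megakaryocytes (0.52, adjusted p = 0.266).

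Haem-containing proteins other than globins had a median log2 difference of -0.01 over 14 tested genes of 23 listed, which became 0.33 when wild-type array 1 was dropped and 0.17 when null array 2 was. By limma 0 passed over all genes, and 0 were lower and 1 higher at an unadjusted p under 0.05. That gene was Epx, the eosinophil peroxidase, with 9496 and 12568 units in wild type and 36406 and 44702 units in null, 3.69-fold higher (adjusted p = 0.0955). Cyba, the smaller cytochrome subunit of the phagocyte oxidase, had a difference of 0.63 and Mpo, the neutrophil peroxidase, one of 0.40, of which 0.78 was seen in lot 1 and 0.03 in lot 2 (adjusted p = 0.438 and 0.651). Cyb5b, an outer mitochondrial membrane cytochrome, had 0.47 (adjusted p = 0.392).

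**Figure D4:**
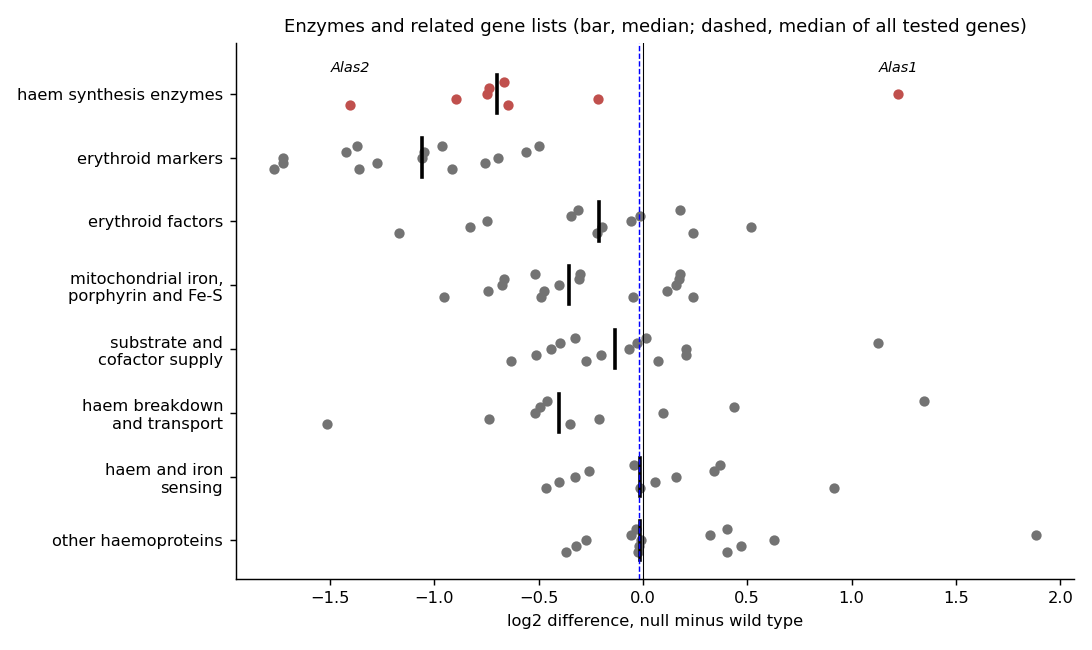
Log2 difference, null minus wild type, of each tested gene in 8 lists (rows). Dots are genes, black bars list medians and the dashed line the median of all tested genes (-0.02). The enzymes, in red, have a median of -0.70 with Alas1 on the far side of 0. The erythroid markers are all below 0 with a median of -1.06. The lists of regulators around haem and iron sensing and of other haemoproteins both have a median of -0.01 over the 4 arrays.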

How the data were processed

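Digoxigenin-labelled cRNA from pooled marrow was measured on 4 Applied Biosystems arrays of 1 colour, per the labels. The deposited table gives the linear intensity of 33012 probes per array. Their sorted values agreed within 0.286%, so they had been quantile normalized before deposit; how the authors scanned, corrected background or called detection is not given in the sources used here. Precision is limited by the number of arrays. Gene names came from the supplied platform annotation (14411 probes with 1 symbol, 247 with several, 18354 with none); 14402 had an Entrez match in RefSeq, GRCm38.p6.

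Signals under the 1st percentile (75.8 units) were raised to it, log2 was taken, the brighter 50% of probes were kept (16506), and the probe of highest mean signal stood for a gene (8445 genes). Genotype was fitted by lmFit and eBayes of limma 3.58.1 under R 4.3.3 ( 2 residual and 2.11 prior degrees of freedom), with Benjamini-Hochberg adjustment over all genes and a threshold of 0.05. The fit was tested on simulated data. Arrays of one lot deviated together (correlation 0.50 of deviations from genotype means, across genes), and the pairing comes from the series text.

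The enzymes and lists were chosen with earlier results of these data known. Named genes were the 8 enzymes and, of each related list, any past the threshold, or else the 3 with the largest differences of at least 0.3 in both lots. Up to 2 of opposite sign to the list median were added, and for likeness the 6 nearest were named. The rule was not kept for every marker list. Some early granulocyte, B lineage and late neutrophil genes that met it were not named, and Pf4 and Meis1 were named outside it. Hba-a1 and Trim10 were chosen after their values were seen. Alternatives changed the filter, floor, scaling, probe rule, variance prior, lot block and arrays. Markers of T and natural killer cells were also listed, with a median log2 difference of 0.30 over 3 tested genes. The stem and multipotent, megakaryocyte and late neutrophil markers had medians of 0.31, 0.65 and -3.64. Figures used matplotlib 3.10.9.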

Additional observations from a re-analysis of the deposited data

How the results depend on the processing

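Over the 14 alternatives, each enzyme kept its direction except Alad, which ran from -0.52 to 0.084 with an array left out; Alas1 ran from 1.09 to 1.36 and Alas2 from -1.65 to -1.15. The number of enzymes past the threshold was 0 as reported and became 2 (Alas1 and Alas2) both when only the brightest 25% of probes were kept and with a variance trend, and stayed 0 (range 0 to 0) with an array left out. The number of all genes past it, 10 as reported, was 0 without the filter, 291 under the 25% filter, 295 with a variance trend, 0 when adjusted over kept probes and 0 with the lot as a replicate block, and 0 to 0 with an array left out, where the lone array of its group is assumed to vary like the others. The replicate block changed no call of an enzyme. The cause of these shifts was not tested. The enzyme median ran from -0.89 to -0.60 with an array left out. Of the medians of the related lists and the cell type marker lists, 133 values stayed within the spread between lots and 23 did not. Each enzyme had 1 probe, so the alternative of its other probes was not run. Arrays of one genotype number 2, which limits every error given.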
